A study of Mus musculus with 39 samples.

Results

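Predicted miRNA genes with Gm names were examined in small RNA libraries from mouse hearts. The animals were wild-type mice of FVB/NJ, an inbred strain. A row of the count files belonged to the set where its name began with Gm and it was deposited as sense to that gene. This gave 128 of 1684 rows, from 95 precursor transcripts, with 65 rows for 5p arms and 63 for 3p arms. A row missing from a file was taken as 0, and levels are CPM, counts scaled by the file's total to a common library size.

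The series held 39 libraries, 16 from females and 23 from males. Female mice were 6 weeks (6 libraries), 7 weeks (3), 8 weeks (2) and 9 weeks (5) old. Of the male libraries, 2 came from mice 4 weeks old, 3 from 5 weeks, 12 from 6 weeks, 1 from 7 weeks, 4 from 8 weeks and 1 from 16 weeks. All groups were untreated wild-type animals as far as the labels say; the protocol names the ventricular apex and the tissue tag the whole heart, and the p-values here reflect the variation between libraries, since no label ties a library to its own animal.

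A miRNA is cut from a hairpin in a longer transcript, first by Drosha in the nucleus and then by Dicer in the cytoplasm, and 1 arm of the duplex is usually kept in an Argonaute protein. The seed, bases 2 to 8 of that arm, pairs with target mRNAs. A Gm symbol is a placeholder that mouse gene annotation gives to a predicted gene; some of these hairpins have since received a Mir name or a mature miRNA entry in GENCODE or RefSeq.

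Libraries held 1788245 to 14563754 counts (median 8410768), and a count of 0 allowed 0.206 to 1.68 CPM (3 counts). No 2 libraries of a group agreed within sampling noise: over 105 pairs the lowest chi-square per degree of freedom was 36.0. The heart muscle miRNAs of the marker list were present throughout, with miR-208a-3p at 124 CPM or more and miR-133a-3p from its second locus at 39115 CPM or more in each library. Markers of endothelium (miR-126-3p, 2161 CPM or more), smooth muscle (miR-143-3p, 24583 CPM or more) and red blood cells (miR-451-5p, 1624 CPM or more) were also present in each library. So were miR-150-5p of the white blood cell list (354 CPM or more), miR-203-3p of the epithelial list (55.4 CPM or more) and miR-9-5p from its second locus of the brain list (6.71 CPM or more). The other miRNA of the epithelial list, miR-200b-3p, was lower and ran from 0.951 to 22.9 CPM. The liver miRNA miR-122a-5p stayed at or below 3.02 CPM, miR-124a-3p from its first locus (brain) at or below 0.416 CPM and miR-142-3p (white blood cell) at or below 0.0963 CPM. More than 40% of the counts belonged to 1 arm in 4 of the libraries. In such tissue samples, fewer cells of a type and less RNA per cell cannot be told apart.

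The sequences shown first are those that carry most of the counts. Gm23935, Gm24270 and Gm24245 have the same 57-base hairpin, and Gm24187 and Gm25911 are near copies of it. Sequences are from GENCODE M21 transcripts (GRCm38), 5′ to 3′, and capitals mark the deposited 5p and 3p arms of each.
Gm23935, chr16:11144125-11144181, + strand: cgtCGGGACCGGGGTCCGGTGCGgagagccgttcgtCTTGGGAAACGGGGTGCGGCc
Gm24270, chr9:56223715-56223771, − strand: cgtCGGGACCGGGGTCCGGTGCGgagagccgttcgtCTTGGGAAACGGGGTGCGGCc
Gm24245, chr4:139338304-139338360, + strand: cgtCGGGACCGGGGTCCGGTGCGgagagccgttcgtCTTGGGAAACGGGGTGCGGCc
Gm24187, chr13:9834469-9834525, − strand: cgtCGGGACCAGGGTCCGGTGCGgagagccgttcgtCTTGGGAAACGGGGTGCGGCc
Gm25911, chr1:167340369-167340424, − strand: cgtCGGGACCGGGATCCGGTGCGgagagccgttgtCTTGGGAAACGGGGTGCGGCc

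Counted from the 5′ end of the Gm23935 hairpin, Gm24187 differs by G11A in the 5p arm. Gm25911 differs by G14A in the 5p arm and is 56 bases long, with 1 base missing in the loop. The 5p arm was thus 1 identical 20-base sequence at 3 loci, and the 3p arm 1 identical 20-base sequence at 5 loci. Gm23935 lies antisense to an intron of Zc3h7a, Gm24270 in an intron of Peak1, and Gm24245 between genes, as does Gm24187. The shared hairpin has a GC content of 73.7% and a predicted folding energy of -22.5 kcal/mol by RNAfold. No M21 transcript of any other gene held the 5p sequence on either strand; the rest of the genome, repeated genes outside that annotation included, was not searched. Whether the reads came from these 3 loci or from another RNA that holds the same letters was not tested, so a row counted as detected here has reads of its sequence, which does not show that the predicted gene was transcribed. How the authors divided reads that match several loci is not given in the sources used here, so the level of each of these loci is uncertain and the sum over identical sequences is given beside it.

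A second group of sequences is shown for the detected or nearly detected rows outside that family, with the seed (bases 2 to 8) in capitals. The first pair is the RefSeq mature miRNA (GRCm38.p6) at the same coordinates, and the second pair is cut from the M21 hairpin.
Gm22041-5p (miR-5709-5p), chr17:67026197-67026218, − strand: aUACGCACacuuaagacuuuag
Gm22564-3p (miR-5621-3p), chr11:115795866-115795886, + strand: uGGGCCCUccagaccucaugc
Gm26092-3p, chr2:10512258-10512280, + strand: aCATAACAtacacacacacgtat
Gm25732-5p, chr4:139338219-139338237, + strand: aGGAGCCTcggttggcctc
These 4 seeds differ from one another. Gm22041 lies in an intron of the receptor phosphatase gene Ptprm, Gm22564 in an intron of Tmem94, and Gm26092 in an intron of Sfmbt2, the polycomb-related gene whose large intron holds the Mir466, Mir467 and Mir669 clusters. Gm25732 lies on the same strand of chromosome 4 as Gm24245 and upstream of it.

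Few predicted miRNA genes had reads of their sequence in heart at the thresholds used. At a mean of 1 CPM over the 39 libraries 7 of 128 rows were detected, from 5 genes and 4 different sequences. At 5 CPM 3 of 128 rows were detected, from 3 genes and 1 sequence, the shared 5p arm. Among rows with Mir names 421 of 1343 (31.35%) reached 1 CPM and 299 (22.26%) reached 5 CPM, against 5.47% and 2.34% of the Gm rows. Together the 128 rows took 0.00937% of all counts on average, from 0.00130% to 0.110% by library.

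The detected rows were Gm23935-5p with a mean of 42.9 CPM, Gm24270-5p with 28.7 CPM, Gm24245-5p with 8.55 CPM, Gm22041-5p with 3.43 CPM, Gm23935-3p with 1.91 CPM, Gm24245-3p with 1.71 CPM and Gm22564-3p with 1.40 CPM. Just below 1 CPM lay Gm26092-3p with 0.696 CPM and Gm25732-5p with 0.597 CPM, while Gm24245-3p and Gm22564-3p were just above. In rank order the nearest rows above 5 CPM were Gm24245-5p and Gm24270-5p, and the nearest below it Gm22041-5p and Gm23935-3p; except for Gm24245-5p and Gm22041-5p these are far from the threshold. The next row, Gm23367-3p, had a mean of 0.254 CPM.

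**Figure D1:**
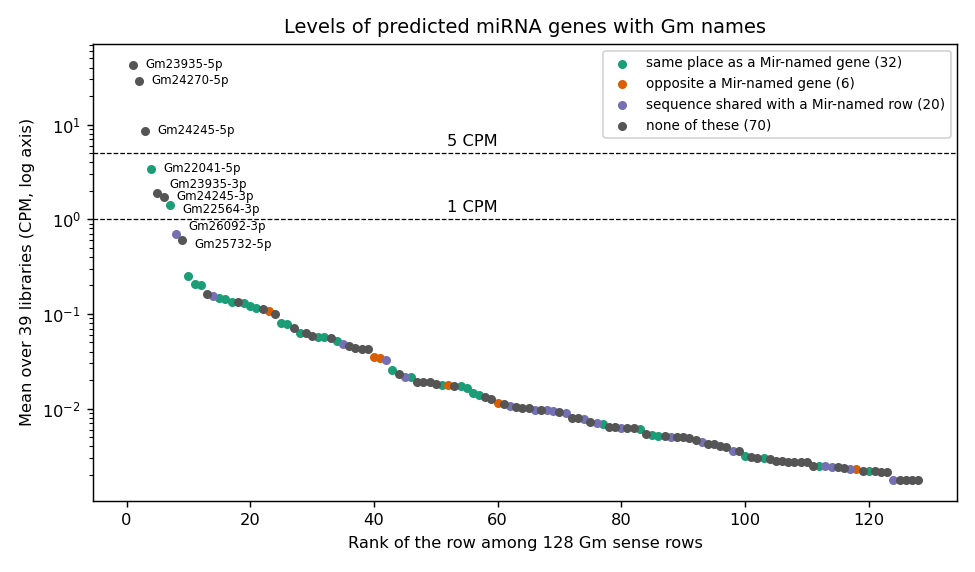
Each point is 1 of the 128 Gm sense rows, ranked by its mean over 39 libraries (vertical axis, CPM on a log axis) and coloured by its relation to Mir-named genes. The dashed lines are the detection thresholds of 1 and 5 CPM, which 7 and 3 rows reach.

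The remaining rows were close to absent at this depth. Of the 128 rows, 104 had a mean under 0.1 CPM and 17 a mean of 0.1 to 1 CPM. In all libraries together 67 rows (52.3%) had 3 counts or fewer, against 250 of 1343 Mir-named rows (18.6%). Only 5 rows had a count in all 39 libraries (Gm23935-5p, Gm24245-5p, Gm22041-5p, Gm24245-3p and Gm22564-3p), and 80 rows had a count in 5 libraries or fewer. Rows listed in the files of 1 sex alone (15 in female files, 34 in male files) held at most 3 counts in all, so their absence from the other sex's files is not a difference in level.

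Members were sorted by what the annotation places at their coordinates. On the same strand as a gene that M21 calls by a Mir name were 32 rows from 18 hairpins, with 2 at 1 CPM, Gm22041-5p and Gm22564-3p; their median mean level was 0.0546 CPM. Opposite a Mir-named gene were 6 rows and sharing bases 2 to 18 with a Mir-named row were 20, none of them at 1 CPM. The other 70 rows had a median of 0.00683 CPM, lower than the renamed rows, but held 5 of the 7 detected rows and 91.4% of the summed level, all 5 from the shared hairpin family. RefSeq had a mature miRNA at the place and strand of 34 rows, with identical coordinates for 29.

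By position, 47 rows lay in introns, 35 in exons, 25 between genes, 16 antisense to introns and 5 antisense to exons. None of the 35 exonic rows reached 1 CPM; the highest, Gm26117-5p in an exon of Adgrb1, had a mean of 0.112 CPM, and 29 of the 35 had 3 counts or fewer. Of the 94 member hairpins found in M21 the median GC content was 57.4% (range 29.5% to 92.0%), against 52.0% (25.3% to 84.9%) for 791 Mir-named hairpins. The median folding energy per base was -0.395 kcal/mol for member hairpins, against -0.422 kcal/mol for Mir-named ones. These are descriptions of overlapping ranges, with no test.

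The shared 5p arm was the member that varied most between libraries. Summed over its 3 loci it ran from 2.58 CPM (6-week male replicate 10) through a median of 25.5 CPM to 1079 CPM (8-week female replicate 2). The next highest libraries were the 16-week male at 404 CPM and 9-week female replicate 1 at 197 CPM. All other member rows together stayed between 8.60 and 22.5 CPM in every library, so the spread of the summed Gm level, 13.0 to 1099 CPM, came from these 3 rows.

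The highest library was also the shallowest, with 1788245 counts, in which Gm23935-5p had 1007 counts, Gm24270-5p 732 and Gm24245-5p 190. Its highest row was Mir486-3p, with 22.5% of its counts, a row that led no other library. Without this library the means over 38 libraries were 29.2 CPM for Gm23935-5p, 18.7 CPM for Gm24270-5p and 5.98 CPM for Gm24245-5p. Without the 16-week male as well they were 24.3, 15.1 and 5.05 CPM, still at or above 5 CPM. By median over the 39 libraries Gm23935-5p was at 16.3 CPM and Gm24270-5p at 5.12 CPM, while Gm24245-5p was at 4.18 CPM, below the higher threshold.

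No batch or date is labelled. The libraries were grouped into 7 library sets by how counts were divided between 2 rows of 1 identical mature sequence, over 10 such pairs of Mir-named rows that are no members; for let-7a-5p the share of its first locus ran from 6.4% to 33.5%. What the sets stand for is not given in the labels. Set 1 held the 4-week and 5-week males and 1 6-week female, set 2 only 6-week males, and sets 3 and 4 both sexes at 6 weeks, set 4 also at 7 weeks. Set 5 held 3 females and 1 male of 7 and 8 weeks, set 6 the 5 females of 9 weeks and no other library, and set 7 an 8-week female, 3 8-week males and the 16-week male.

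The summed 5p level differed between these sets. In set 7 it ran from 123 to 1079 CPM, and in set 6 from 51.5 to 197 CPM. In sets 2, 3 and 4 it ran from 7.72 to 36.7 CPM, from 2.58 to 45.2 CPM and from 8.31 to 68.8 CPM. Sets 1 and 5 spanned 4.21 to 128 CPM and 6.92 to 114 CPM. Set 7 lay above every library of sets 2, 3, 4 and 5 and overlapped sets 1 and 6. How many of all rows separate these sets was not counted. Among males of 8 weeks the library of set 5 had 7.06 CPM, while the 3 of set 7 had 124, 123 and 159 CPM. Among females of 8 weeks the library of set 5 had 40.3 CPM and that of set 7 had 1079 CPM.

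**Figure D2:**
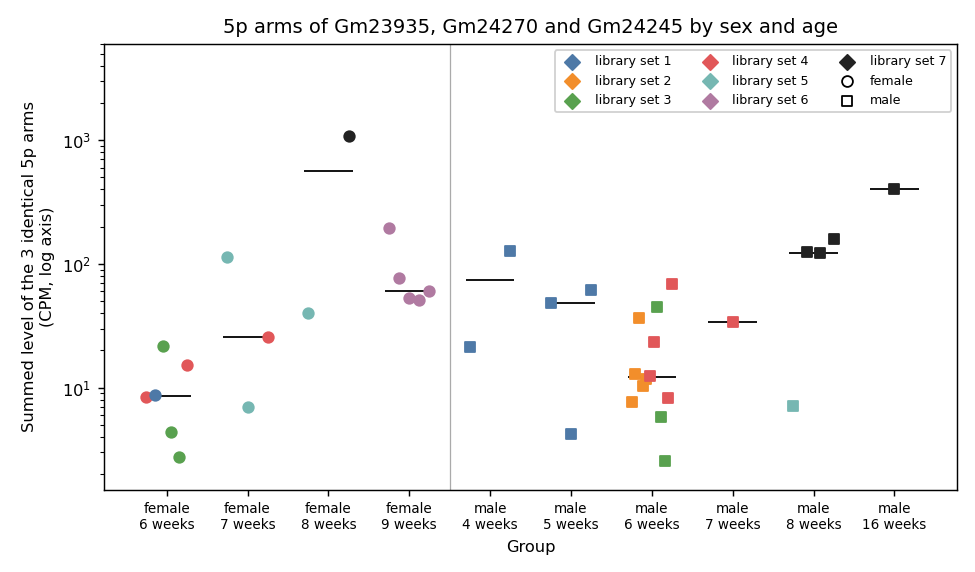
The summed level of the 5p arms of Gm23935, Gm24270 and Gm24245 (CPM, log axis) is plotted per library, with females left of males, ages from low to high, the group median as a line and colours for the 7 library sets. The 8-week libraries of set 7 lie at 123 CPM or more and the 8-week libraries of set 5 at 40.3 CPM or less.

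Sex was compared at 6 weeks, the age with most libraries of both sexes. Gm23935-5p had 1.87, 6.21 and 13.3 CPM as lowest, median and highest in 6 female libraries, against 1.72, 7.28 and 40.2 CPM in 12 male libraries. The female range lay inside the male range. The only member past the filter (5 CPM in at least 5 libraries fitted), Gm23935-5p differed by a log2 of -0.78 ± 0.55 (SE), female over male, with an adjusted p of 0.478 by edgeR's quasi-likelihood test with Benjamini-Hochberg adjustment. No row was called among 339 tested (0.0%), 25 had an unadjusted p under 0.05, and DESeq2 also called 0.

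Within library sets the sexes at 6 weeks overlapped too. In set 3 the summed 5p arm had 21.8, 4.35 and 2.75 CPM in females, against 45.2, 5.83 and 2.58 CPM in males. In set 4 it had 8.38 and 15.3 CPM in females, against 12.5, 23.3, 8.31 and 68.8 CPM in males. With library set as a term Gm23935-5p differed by -0.84 ± 0.64 (adjusted p = 0.951, edgeR), close to the value without it.

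Gm24270-5p and Gm24245-5p were below the filter at 6 weeks and are given as levels. Gm24270-5p had 0.178, 0.423 and 5.12 CPM as lowest, median and highest in females, against 0, 1.38 and 18.8 CPM in males; the highest female, replicate 3, was the only one above 0.548 CPM. Gm24245-5p had 0.471, 2.01 and 5.57 CPM in females, against 0.429, 2.86 and 9.93 CPM in males. Both ranges overlapped. With the lower filter of 1 CPM in at least 5 libraries 7 members were tested and 0 called, against 0 of 483 rows in all. Gm24270-5p had the smallest unadjusted p of these members, 0.0453, with an adjusted p of 0.558 (edgeR).

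Age was examined in females of 6 to 9 weeks as a log2 slope per week. The summed 5p arm had 2.75, 8.53 and 21.8 CPM as lowest, median and highest at 6 weeks, 114, 6.92 and 25.5 CPM in the 3 libraries of 7 weeks, 40.3 and 1079 CPM at 8 weeks, and 51.5, 60.6 and 197 CPM as lowest, median and highest at 9 weeks. The 5 libraries of 9 weeks lay above the 6 libraries of 6 weeks. How many of all rows separate these ages in the same way was not counted, so this is not shown to be particular to the arm. At 7 weeks 1 library lay within the 6-week range and 1 within the 9-week range, and at 8 weeks 1 library lay above all others. The slope was 1.66 ± 0.53 for Gm23935-5p (adjusted p = 0.0762), 2.34 ± 0.79 for Gm24270-5p (0.0868) and 1.09 ± 0.50 for Gm24245-5p (0.245), by edgeR with Benjamini-Hochberg adjustment.

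By locus, Gm23935-5p had 46.8, 3.46 and 16.3 CPM in the females of 7 weeks, 19.5 and 563 CPM at 8 weeks and 89.9, 46.3, 33.8, 32.3 and 39.3 CPM at 9 weeks. Gm24270-5p had 60.1, 0.830 and 4.42 CPM at 7 weeks, 15.5 and 409 CPM at 8 weeks and 97.2, 25.8, 14.7, 15.7 and 16.9 CPM at 9 weeks. Gm24245-5p had 7.51, 2.63 and 4.76 CPM at 7 weeks, 5.33 and 106 CPM at 8 weeks and 9.37, 5.47, 4.18, 3.53 and 4.32 CPM at 9 weeks. For Gm23935-5p and Gm24270-5p the 9-week females lay above all 6-week females, whereas for Gm24245-5p these ages overlapped. As for the sum, the share of all rows that separate these ages was not counted.

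None of the 3 members tested in females passed, against 10 of 331 rows called in that comparison (3.02%); all 3 members had an unadjusted p under 0.05, and DESeq2 called Gm23935-5p and Gm24245-5p, with 48 of 331 rows (14.5%), and gave Gm24270-5p no adjusted p. The 10 rows were 1 higher and 9 lower with age; the 48 rows by DESeq2 were 20 higher and 28 lower. The 3 members hold 1 identical 5p sequence, so they are not 3 separate results. The result turned on a single library. Without 8-week female replicate 2, 3 of 3 members were called, at 0.99 ± 0.18 for Gm23935-5p (adjusted p = 0.00223), 1.42 ± 0.41 for Gm24270-5p (0.0216) and 0.46 ± 0.16 for Gm24245-5p (0.0480), but 75 of 328 rows (22.9%) were called in the same fit. With library set as a term the slopes were 0.18 ± 0.78, 0.28 ± 1.47 and -0.06 ± 0.54, with adjusted p of 0.974 for each (edgeR). In that fit only sets 4 and 5 held females of more than 1 age. The 9-week females and 8-week female replicate 2 therefore did not inform these slopes, which are not slopes over 6 to 9 weeks. The 9-week females are set 6 and no other library is, so at that age the set and the age cannot be told apart.

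In males of 4 to 8 weeks no slope of a member passed. The summed 5p arm had 21.2 and 128 CPM at 4 weeks, 48.5, 4.21 and 61.5 CPM at 5 weeks, 2.58, 12.2 and 68.8 CPM as lowest, median and highest at 6 weeks, 34.1 CPM in the library of 7 weeks and 7.06, 124, 123 and 159 CPM at 8 weeks. The ages overlapped: a library under 8 CPM occurred at 5, 6 and 8 weeks. The log2 slope per week was 0.22 ± 0.20 for Gm23935-5p (adjusted p = 0.404), 0.01 ± 0.28 for Gm24270-5p (0.985) and 0.35 ± 0.17 for Gm24245-5p (0.125), by edgeR with Benjamini-Hochberg adjustment.

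By locus, Gm23935-5p had 13.6 and 59.96 CPM in the males of 4 weeks, 19.6, 3.26 and 32.5 CPM at 5 weeks, 19.0 CPM at 7 weeks and 3.16, 73.3, 75.6 and 86.5 CPM at 8 weeks. Gm24270-5p had 2.77 and 59.3 CPM at 4 weeks, 26.1, 0 and 23.9 CPM at 5 weeks, 7.06 CPM at 7 weeks and 2.0, 38.0, 29.8 and 50.1 CPM at 8 weeks. Gm24245-5p had 4.79 and 9.06 CPM at 4 weeks, 2.78, 0.957 and 5.17 CPM at 5 weeks, 7.99 CPM at 7 weeks and 1.90, 13.0, 17.4 and 21.96 CPM at 8 weeks. In each row the same 8-week library, replicate 1, lay below the others of its age.

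Against these 0 of 3 members, 121 of 346 rows (35.0%) were called in the male slope, 47 higher and 74 lower with age; scaled by total counts alone the split was 61 higher and 35 lower. No member had an unadjusted p under 0.05, and DESeq2 called 0 members. With no filter on low counts 2 of 113 members were called, Gm26117-5p and Gm23720-5p, with 29 and 27 counts in all, while 105 of 1541 rows (6.81%) were called. Without 4-week male replicate 2, which had 9.06 CPM of Gm24245-5p, that row was called at 0.61 ± 0.19 (adjusted p = 0.0179, edgeR), with 116 of 346 rows (33.5%) called in that fit. With library set as a term the slopes turned to -0.54 ± 0.69 for Gm23935-5p, -0.47 ± 1.10 for Gm24270-5p and -0.29 ± 0.53 for Gm24245-5p, and none was called. In that fit only sets 1 and 4 held fitted males of more than 1 age. The 8-week males therefore did not inform these slopes, which are not slopes over 4 to 8 weeks. The 16-week male, in no test, had 212 CPM of Gm23935-5p, 151 CPM of Gm24270-5p and 40.5 CPM of Gm24245-5p.

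The slopes of the sexes were compared over 6 to 8 weeks, which both have (11 female and 17 male libraries). The female slope minus the male slope was 1.73 ± 0.60 for Gm23935-5p (adjusted p = 0.102), 2.86 ± 0.90 for Gm24270-5p (0.0794) and 1.42 ± 0.53 for Gm24245-5p (0.113), log2 per week by edgeR with Benjamini-Hochberg adjustment. None of the 3 was called, against 7 of 346 rows (2.02%); all 3 had an unadjusted p under 0.05, and DESeq2 called Gm23935-5p and Gm24270-5p, with 25 rows in all (7.23%).

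That comparison had only 2 females of 8 weeks, at 40.3 and 1079 CPM of the summed arm. Its 3 members again hold 1 sequence and are not separate results. Without 8-week female replicate 2 the differences were 0.06, 2.0 and -0.17 with adjusted p of 0.331 or more. Without 8-week female replicate 1 they were 2.01, 3.27 and 1.72 and all 3 members were called, with 89 of 346 rows (25.7%). Without 6-week female replicate 3 Gm24270-5p alone was called, at 3.62 ± 0.97 (adjusted p = 0.0494, edgeR), with 8 rows in all (2.31%). With library set as a term all 3 members were called, at 1.94 ± 0.54, 2.86 ± 0.90 and 1.43 ± 0.41, and so were 94 of 346 rows (27.2%). In that fit the sexes at 8 weeks met only within sets 5 and 7. The only female of set 7 was replicate 2, the library at 1079 CPM, so these calls do not stand apart from that library.

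Counts of the shared 5p arm were divided unevenly between its 3 identical loci. Gm23935 received 59.5% ± 10.02, Gm24270 23.3% ± 15.1 and Gm24245 17.1% ± 9.71 of the sum (SD, n = 39 libraries). The share of Gm24270 ran from 0 of 22 counts in 5-week male replicate 2, which allows a share of up to 13.6%, to 53.8% of 314 counts in 5-week male replicate 1 (95% Wilson interval 48.3% to 59.3%). Both libraries belong to set 1 and to 1 group, so this difference was present within a set. Intervals and floors cover counting error only, since reads were counted without molecular identifiers.

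**Figure D3:**
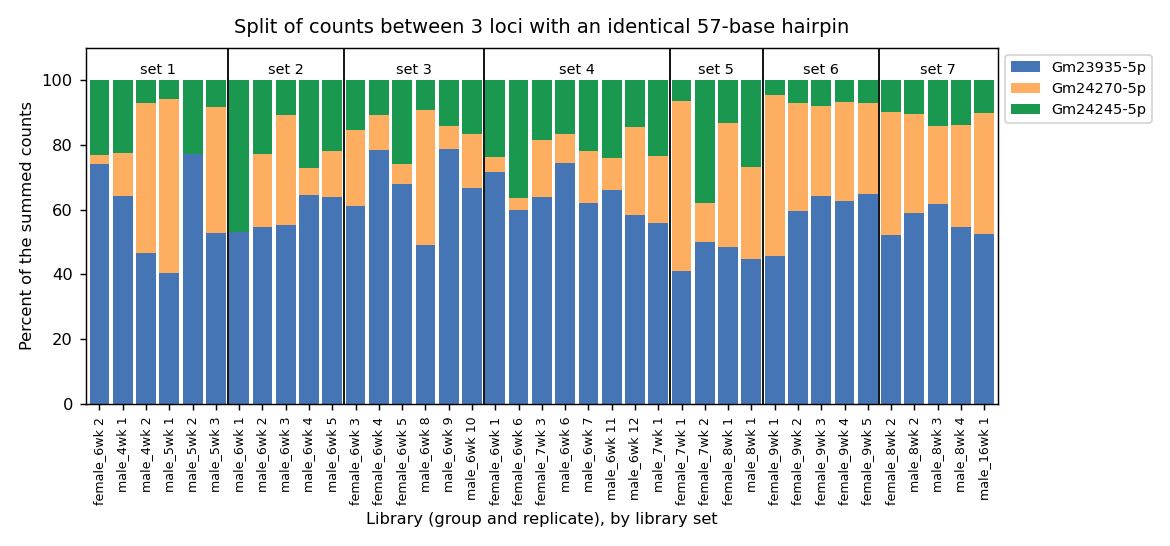
Bars give, for each of the 39 libraries, the percent of the summed 5p counts at Gm23935, Gm24270 and Gm24245, 3 loci with an identical hairpin; libraries are grouped by library set, females first. The share of Gm24270 runs from 0% (0 of 22 counts) to 53.8%. Sets 6 and 7 have narrower ranges than set 1, but also 547 or more summed counts in each library, against as few as 22 in set 1.

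By set the Gm24270 share was 25.8% ± 23.4 in set 1 (SD, n = 6), 15.8% ± 13.2 in set 2 (n = 5), 17.7% ± 13.4 in set 3 (n = 6), 13.5% ± 8.21 in set 4 (n = 8), 32.8% ± 17.1 in set 5 (n = 4), 33.8% ± 9.02 in set 6 (n = 5) and 32.4% ± 5.65 in set 7 (n = 5). The ranges of the sets overlapped in part, with 0% to 53.8% in set 1 and 12% to 52.5% in set 5. A second library with 0 counts of Gm24270-5p was 6-week male replicate 1, with 17 counts at Gm23935 and 15 at Gm24245. In 9-week female replicate 1 Gm24270 received 49.5% of 2161 counts (Wilson interval 47.4% to 51.6%), above the other 9-week females. The share also differed by level. Where the summed 5p arm was 40.3 CPM or more, Gm24270 received 24.2% to 53.8% of it, and in the other libraries 0% to 34.2%. The sum contains Gm24270-5p, so its share and the sum are not independent. The cause of the uneven split was not tested.

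The 3p arm of the same hairpins behaved differently from the 5p arm. Gm23935-3p ranged from 0 to 4.79 CPM and Gm24245-3p from 0.0888 to 5.65 CPM over the 39 libraries. Summed over its 5 loci the 3p arm ran from 0.533 to 10.2 CPM with a median of 3.19 CPM, a 19.1-fold span, against a 419-fold span of the 5p sum. The 5p sum was higher than the 3p sum in 39 of 39 libraries, by 1.78-fold (6-week male replicate 1) to 107-fold (8-week female replicate 2), with a median of 6.28-fold. In set 7 the ratio was 29.7-fold or more, with a median of 50.1-fold. Its median was 19.9-fold in set 6 and 4.36 to 9.05 by set in sets 1 to 5. The sets overlapped in part: the highest ratio was 33.2-fold in set 1, 37.25-fold in set 3 and 58.4-fold in set 6. Since the 3p sum includes 2 hairpins that have another 5p arm, Gm24187 and Gm25911, these ratios understate the balance at the 3 shared loci.

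**Figure D4:**
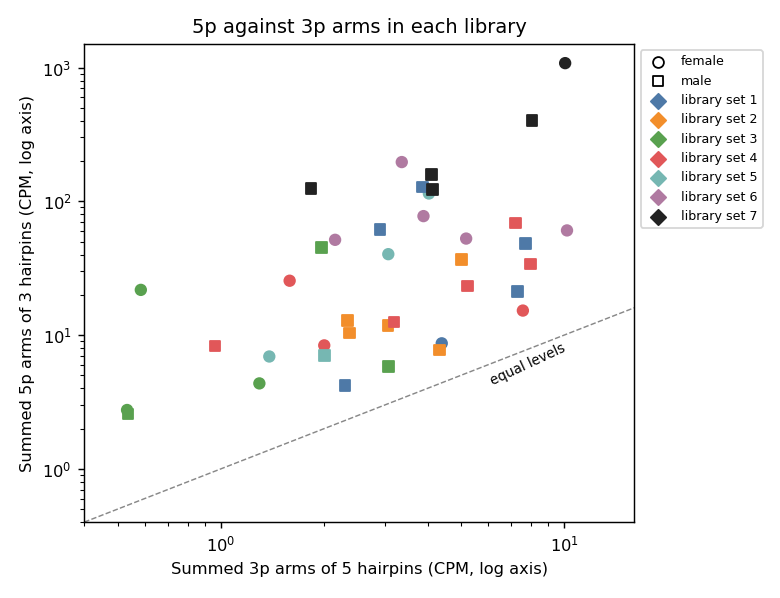
Each point is 1 library, with the summed 3p arms of 5 hairpins on the horizontal axis and the summed 5p arms of 3 hairpins on the vertical axis (CPM, both log axes). All 39 points lie above the line of equal levels, by 1.78-fold to 107-fold.

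Counts of the 3p arm were placed almost wholly at Gm23935 (49.7% of the counts pooled over libraries) and Gm24245 (43.5%), with 2.48% at Gm24270, 3.31% at Gm24187 and 0.993% at Gm25911. Gm24270 thus had 6402 counts of its 5p arm and 30 of its 3p arm, although its hairpin is letter for letter that of Gm23935, which had 9881 and 600. In the fit with identical rows summed, an alternative chosen after seeing the data, the 3p sum passed the filter in the male slope, at -0.21 ± 0.15 log2 per week (adjusted p = 0.281, edgeR), and in the sex by age term, at 0.56 ± 0.50 (adjusted p = 0.517). The 5p sum in that fit had 1.79 ± 0.58 in females (adjusted p = 0.0780) and 0.16 ± 0.21 in males (0.576).

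Of the members that M21 calls by Mir names, 2 reached 1 CPM. Gm22041-5p, annotated as Mir5709, had 0.559, 3.25 and 5.75 CPM as lowest, median and highest over 39 libraries, with 1 count in the lowest, 8-week female replicate 2. By sex it averaged 3.22 ± 1.32 CPM in females (SD, n = 16) and 3.57 ± 1.08 CPM in males (n = 23). Its set medians ran from 2.64 CPM in set 6 to 4.27 CPM in set 5. Gm22564-3p, annotated as Mir5621, averaged 1.34 ± 0.432 CPM in females and 1.45 ± 0.719 CPM in males, with a range of 0.123 to 2.67 CPM over all libraries. The sexes overlapped for both rows. The low libraries of Gm22041-5p, 0.559 CPM (1 count) and 0.948 CPM in the 16-week male (4 counts), were those with the highest shared 5p sum. These values rest on few counts. Gm22564-3p had 1.12 and 0.711 CPM in the same libraries, and its lowest value in 6-week male replicate 6.

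Both rows passed only the lower filter of 1 CPM in at least 5 libraries. There Gm22041-5p had a sex difference at 6 weeks of 0.02 ± 0.18, a male slope of 0.11 ± 0.06 and a female slope of -0.01 ± 0.10, and Gm22564-3p had -0.06 ± 0.34, -0.30 ± 0.15 and 0.04 ± 0.10 (log2, SE; adjusted p of 0.126 or more by edgeR). Under that filter 0 of 9 members tested were called in the male slope, against 135 of 494 rows (27.3%). In the female slope 0 of 7 members were called, against 6 of 470 rows (1.28%), and in the sex by age term 0 of 9, against 1 of 504 rows (0.198%).

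**Figure D5:**
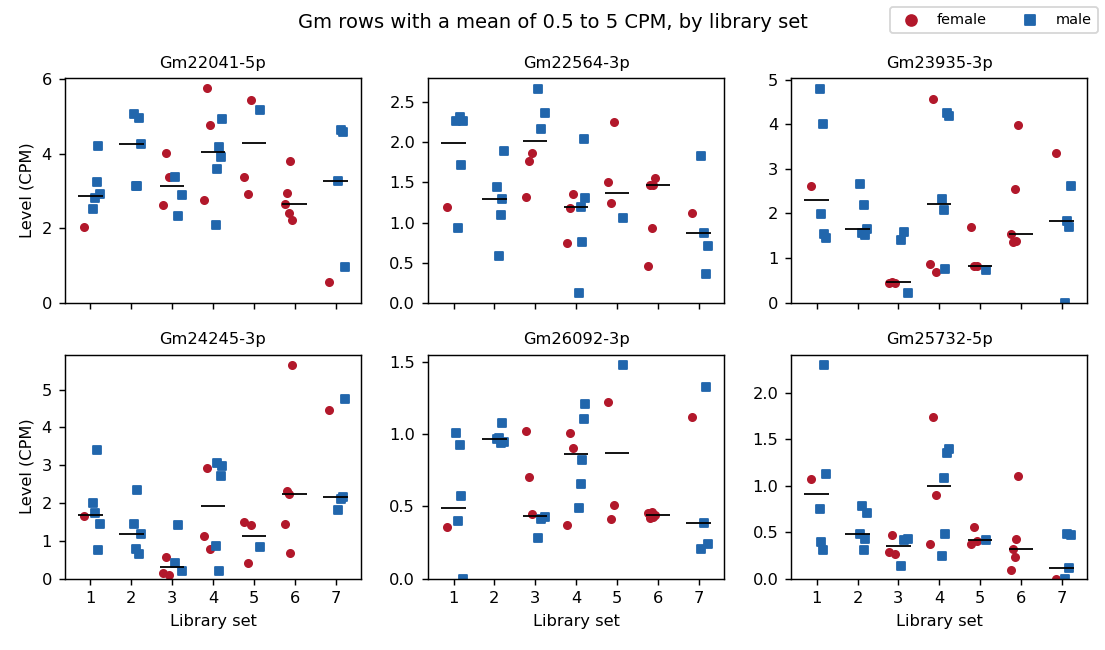
Levels in CPM are plotted per library for 6 Gm rows with a mean of 0.5 to 5 CPM, by library set, females left of males, with the set median as a line. Gm22041-5p keeps a set median of 2.64 to 4.27 CPM, while Gm23935-3p and Gm24245-3p have their lowest set median in set 3.

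The counts of each hairpin were divided between its arms as follows, for hairpins with enough counts; since ligation and amplification favour some sequences, these are shares of counts and not of molecules. Mir5709 gave 96.5% of 1172 pooled counts to its 5p arm (Wilson interval 95.3% to 97.4%), and that arm was higher in 39 of 39 libraries. Mir5621 gave 91.9% of 482 counts to its 3p arm (89.1% to 94.0%), higher in 38 libraries. Gm25732 gave 98.0% of 198 counts to its 5p arm (94.9% to 99.2%). Mir5615-2, Mir5616 and Mir1231 had closer counts: the higher arm held 54.5%, 58.8% and 60.3% of them, with intervals that include 50%, the level of equal counts.

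Gm26092-3p was the highest member that shares its whole sequence with Mir-named rows. It had a mean of 0.696 CPM, against 0.00503 to 0.0701 CPM for the 4 rows of Mir669a-1, Mir669a-2, Mir669a-7 and Mir669o with the identical arm, so that 84.6% of the counts of that sequence stood at the Gm locus. For the 5p arm the order was reversed: Gm26092-5p had 1 count in all, against 427 counts over 5 Mir669 rows of identical sequence. Over all 17 members identical to a Mir-named row, the Gm locus held from 0.234% to 84.6% of the counts of the member and its Mir-named copies. Levels of these rows are uncertain for the same reason as those of the shared hairpin.

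The 6 rows opposite a Mir-named gene had almost no counts on the Gm strand. Gm25301-5p, opposite Mir378a and antisense to an intron of Ppargc1b, had 32 counts in all and a mean of 0.106 CPM, while the other strand of the same interval had a mean of 51550.0 CPM. Its highest value, 2.63 CPM, was in 7-week female replicate 2, where the other strand also had its highest, 463583 CPM. Gm24083-5p opposite Mir191 had 0.0348 CPM against 16.9 CPM on the other strand, Gm24111-5p opposite Mirlet7f-1 had 0.0176 against 28.3 CPM, and Gm24321-3p opposite Mir409 had 0.00228 against 14.7 CPM. In Gm25641-5p, opposite Mir9-1, the values were closer, 0.0116 against 0.210 CPM, with 4 counts on the Gm strand. For that row RefSeq places a mature miRNA, mmu-miR-9b-5p, on the Gm strand itself, with slightly different coordinates.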

How the data were processed

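Each deposited file held unnormalized read counts by arm for 1 library, made with a TruSeq small RNA kit per the labels' protocols. The submitters' processing notes list GRCm38, DESeq and edgeR, with no version; neither the aligner nor the rule for reads matching several loci is stated there. Ligation and amplification favour some sequences, so levels of different arms are not directly comparable. From the counts, CPM by file total were computed, and arms were matched to GENCODE M21 transcripts (127 of 128 rows; 124 with a sequence) and RefSeq mature miRNAs (overlap of 15 bases or more). Hairpins were folded with RNAfold 2.7.2. Tests used edgeR 4.0.16 (R 4.3.3, TMM, quasi-likelihood) on rows with 5 CPM or more in at least 5 libraries fitted, called at an adjusted p under 0.05 over all rows tested; DESeq2 1.42.0 was an alternative. The procedure was tested on simulated data with the same spread setting for each row and no library sets. That test does not show how the procedure performs on the libraries used here. The 16-week male entered no test. Library sets came from Ward clustering into 7 sets. Named were rows of 1 CPM or more, the 2 on each side of a threshold, and called rows; other rows were chosen after their values were seen. Members, lists and tests were chosen with earlier results of these data known.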

Additional observations from a re-analysis of the deposited data

Results flagged for a closer look

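Single libraries far from the rest of their group were looked for in 27 combinations of row and group (4 to 6 libraries each). Chance alone gives about 1 in 20 for each. The combinations are not independent, since the summed 5p arm contains rows of 1 sequence that are also looked at alone, so the number of flags cannot be set against that rate. In 9-week female replicate 1, Gm23935-5p had 89.9 CPM against 32.3 to 46.3 CPM in the other 9-week females, Gm24270-5p had 97.2 CPM against 14.7 to 25.8 CPM, and the summed 5p arm had 197 CPM against 51.5 to 77.5 CPM. In 8-week male replicate 1, Gm23935-5p was low, at 3.16 CPM against 73.3 to 86.5 CPM in the other 8-week males; it is the 8-week male outside library set 7. In 6-week female replicate 3, Gm24270-5p had 5.12 CPM against 0.178 to 0.548 CPM in the other 6-week females.

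Outside the sense rows, 14 of 40 Gm rows deposited as antisense had a mean of 1 CPM or more, and together the 40 rows took 6.65% ± 6.72 of counts (SD, n = 39). The highest, Gm25301-5p antisense, is the strand of Mir378a and had 51550.0 CPM; Gm24083-3p antisense, the strand of Mir191, had 12792 CPM. Rows deposited as antisense enter no comparison above.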

How the results depend on the processing

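The counts of detected members, 7 at 1 CPM and 3 at 5 CPM, ran from 7 to 7 and from 3 to 3 when each library was left out. They became 21 and 13 with the Gm antisense rows added, and 4 and 1 with identical sequences summed, an alternative added after seeing the data; the counts under the other alternatives were within 1.5 times. Members called (0 in each comparison) became 2 without a filter on low counts in the male slope, namely Gm26117-5p with 29 counts in all and Gm23720-5p with 27. They became 2 by DESeq2 in the female slope, 2 by DESeq2 and 3 with library set as a term in the sex by age comparison. Leaving out 1 library gave 0 to 0 in the sex comparison, 0 to 1 in the male slope, 0 to 3 in the female slope and 0 to 3 in the sex by age comparison. Male slopes turned to -0.54 (Gm23935-5p), -0.47 (Gm24270-5p), -0.29 (Gm24245-5p) and -0.47 (5p sum) with library set as a term, and the female slope of Gm24245-5p to -0.06. Those fits compare ages only within a set, so the 8-week males and the 9-week females do not inform them, and the cause was not tested. The near-zero male slope of Gm24270-5p ran from -0.15 to 0.46 over libraries left out, and the sex by age value of Gm24245-5p from -0.17 to 1.72. Correlations between the deviations of same-numbered libraries had both signs (6 pairs at 6 weeks, -0.42 to 0.34, 2 of them over 0.1). Over 0.1 were 5 of 16 pairs in the male slope, 4 of 17 in the female slope and 12 of 31 in the sex by age comparison. The labels do not say whether the numbers pair libraries. With the replicate block 0 members were called in each comparison, and the male slope of Gm24270-5p was -0.11; calls over all rows went to 2 for sex, 95 for the male slope, 0 for the female slope and 0 for sex by age, from 0, 121, 10 and 7. Calls over all rows also went to 48 (DESeq2), 6 (filter of 1 CPM), 1 (no filter) and 0 (library set) for the female slope, to 0 (library set) for the male slope, and to 25 (DESeq2), 94 (library set), 1 (filter of 1 CPM), 1 (no filter), 1 (without libraries in which 1 arm dominates) and 0 (total-count scaling) for sex by age. Rows with a few counts in all are limited by depth.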
